A study of Homo sapiens with 9 samples.

Results

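The genes described here encode the machinery that starts autophagy: the kinases ULK1, ULK2 and ULK3, the ULK complex subunits ATG13, ATG101 and RB1CC1, and the BECN1 regulators AMBRA1 and BECN1 itself. The 8 genes were taken by symbol from tables that list 60664 genes, and each of the 8 passed the filter on low counts. The members were selected on the gene symbol, in a list drawn up with the fold changes and adjusted p-values of these same comparisons in view, so the members' levels, fold changes and calls below are descriptions and carry no independent weight. Transcripts were measured by RNA-seq of total RNA in HEK293 Flp-In T-REx cells, a human embryonic kidney line built for tetracycline-inducible expression from a single integration site. TTC33 knock-down cells carried a microRNA against TTC33, which encodes a tetratricopeptide repeat protein (3 libraries). CCDC97 knock-down cells carried a microRNA against CCDC97, which encodes a coiled-coil domain protein (3 libraries). Control cells were the parental line with no microRNA (3 libraries). Tetracycline was given to all cells (100 ng/ml, for 3 days), so the drug is common to every comparison. Against control, expression of any microRNA at all and depletion of its target cannot be told apart. Between the knock-downs both groups carry a microRNA, and there the line, the particular microRNA and its target cannot be told apart. The labels say neither whether a line is a clone nor whether replicates were cultured apart, so a p-value here reflects library-to-library spread alone, which may be technical.

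Autophagy delivers cytoplasm and organelles to lysosomes inside double-membrane vesicles. Its first step is run by a complex of ULK1 or its close paralog ULK2 with ATG13, ATG101 and the large scaffold RB1CC1 (also called FIP200). In fed cells the kinase mTORC1 phosphorylates ULK1 and ATG13 and holds the complex back, while AMPK activates ULK1 when energy is low. The active complex phosphorylates BECN1 and other subunits of the class III PI 3-kinase complex, which makes the lipid PI3P at the site where the vesicle forms, and AMBRA1 binds BECN1 and helps stabilise ULK1. ULK3 is a more distant relative with roles in Hedgehog signalling and in autophagy. Most of this control acts on the proteins, and the measurements below are of RNA only.

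The sequences just before the start sites of the 3 kinase genes are shown as a description, and no link to the fold changes below was tested. Each is the 250 bases before the RefSeq transcript start on GRCh38.p14, written 5′ to 3′ on the gene's strand. Capitals mark copies of the GC box (GGGCGG, or CCGCCC on the other strand) and of the E-box CACGTG, the core of the sites of MiT/TFE factors, which reads the same on both strands.
ULK1: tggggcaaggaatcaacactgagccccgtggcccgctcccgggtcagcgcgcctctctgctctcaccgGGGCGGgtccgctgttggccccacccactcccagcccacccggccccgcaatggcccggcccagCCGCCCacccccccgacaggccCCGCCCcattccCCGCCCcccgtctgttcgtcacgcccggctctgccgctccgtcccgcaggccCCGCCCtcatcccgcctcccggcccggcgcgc
ULK2: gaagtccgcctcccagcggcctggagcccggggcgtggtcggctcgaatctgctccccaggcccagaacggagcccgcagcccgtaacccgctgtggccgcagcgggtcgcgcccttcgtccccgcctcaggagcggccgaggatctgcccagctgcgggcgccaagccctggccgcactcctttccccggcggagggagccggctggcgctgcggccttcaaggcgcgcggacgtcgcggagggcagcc
ULK3: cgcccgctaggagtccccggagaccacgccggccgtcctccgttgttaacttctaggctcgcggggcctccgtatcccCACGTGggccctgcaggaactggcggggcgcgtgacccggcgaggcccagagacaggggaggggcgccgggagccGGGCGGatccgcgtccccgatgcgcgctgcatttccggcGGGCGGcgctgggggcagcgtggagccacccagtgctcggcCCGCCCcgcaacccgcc
The ULK1 window lies at chr12:131894372-131894621 on the plus strand and holds 5 GC boxes, the nearest of them 32 bases before the start, and no E-box. The ULK2 window, chr17:19867937-19868186 on the minus strand, holds neither motif. The ULK3 window, chr15:74843157-74843406 on the minus strand, holds 3 GC boxes and 1 E-box that lies 172 bases before the RefSeq start. GENCODE v29 has ULK3 start farther upstream, at 74843346. Most of the ULK3 window, with all of its marked motifs, is inside the gene in that annotation. Of 35116 promoter windows of the same length, 42.6% held a GC box and 6.34% an E-box. The 3 windows are alike in base composition, at 78%, 76% and 76% G and C for ULK1, ULK2 and ULK3. All 3 are richer in G and C than the median promoter window, at 58%. These matches describe letters in a window and say nothing of which factors bind there.

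The libraries held 21764203 to 36110891 counts in genes. TTC33 fell to 9.67, 6.41 and 6.16 counts-per-million (CPM) in its knock-down, 19.7% of the control level, against 37.1 to 38.6 CPM in control. CCDC97 fell to 15.8, 15.3 and 15.7 CPM in its knock-down, 26.0% of control, against 59.5 to 60.6 CPM in control. In the TTC33 knock-down CCDC97 was higher than in control, at 65.1, 81.3 and 95.8 CPM (log2 fold change 0.43, edgeR adjusted p = 0.0371). In the CCDC97 knock-down TTC33 was at 30.0, 52.5 and 47.0 CPM (0.19, edgeR adjusted p = 0.632). Of 7 HEK293 markers, KRT8, KRT18, VIM, NEFL and LIN28B were each at 76.1 CPM or more in every library, PAX2 was at 2.64 to 6.24 CPM and NEFM at 0.61 to 1.12 CPM. The blood, endothelial and hepatocyte markers reached at most 0.21 CPM, and HBB had no count in any library. Of the fibroblast markers COL1A1 was at 5.95 to 9.81 CPM, LUM at 0.07 to 1.09 CPM and DCN at 0.19 CPM or less. By base composition, replicate 1 differed from the other two replicates in either knock-down. In the tenth of genes lowest in G and C (median 36.8%), the median log2 difference from control was 0.03, -0.45 and -0.48 in TTC33 knock-down replicates 1, 2 and 3, and -0.15, 0.19 and 0.17 in CCDC97 knock-down replicates 1, 2 and 3. In the tenth richest in G and C (median 63.5%), it was -0.07, 0.36 and 0.40 in TTC33 knock-down and 0.15, -0.26 and -0.26 in CCDC97 knock-down. The members span this range, with RB1CC1 at 37.6% and ULK1 at 64.2% G and C over their longest transcripts, so each member's fold changes against control are given with and without a correction for GC content and length. The correction takes trends fitted to these same libraries as known, so its standard errors and p-values leave out the uncertainty of the trends. With it 27.4% of all genes passed in the TTC33 knock-down, in place of 11.9%. In the CCDC97 knock-down 19.3% passed, in place of 4.56%.

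ULK2 fell in both knock-downs, and ATG13, ATG101 and AMBRA1 rose in the TTC33 knock-down. Of the genes that rose, only ATG13 also passed when the knock-downs were set directly against each other. The rise of ATG101 or AMBRA1 is therefore not shown to be particular to TTC33 depletion. In the TTC33 knock-down 4 of the 8 members passed an edgeR adjusted p of 0.05, 3 higher and 1 lower, where 11.9% of the 18299 genes tested passed. Of the 8, 1 passed in the CCDC97 knock-down, where 4.56% of all genes did. Of the 4 calls in the TTC33 knock-down, those of ULK2 and ATG13 also passed with the replicate number as a block, where 4.13% of all genes passed. The limit of that block is given below. Leaving out 1 library gave 1 to 6 members called, and 552 to 6512 genes in all. ATG101 did not pass after the GC and length correction. The groups' CPM did not overlap for 6 members in the TTC33 knock-down (5 higher, 1 lower), as for 36.8% of all genes, and for 6 in the CCDC97 knock-down (4 higher, 2 lower), as for 29.9% of all genes. The members' median log2 fold change came to 0.27 with TTC33 depleted and 0.12 with CCDC97 depleted, against 0.0045 and 0.00083 over all genes. Both comparisons use the same 3 control libraries, so their values are set side by side and are not 2 independent readings of the control level.

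**Figure D1:**
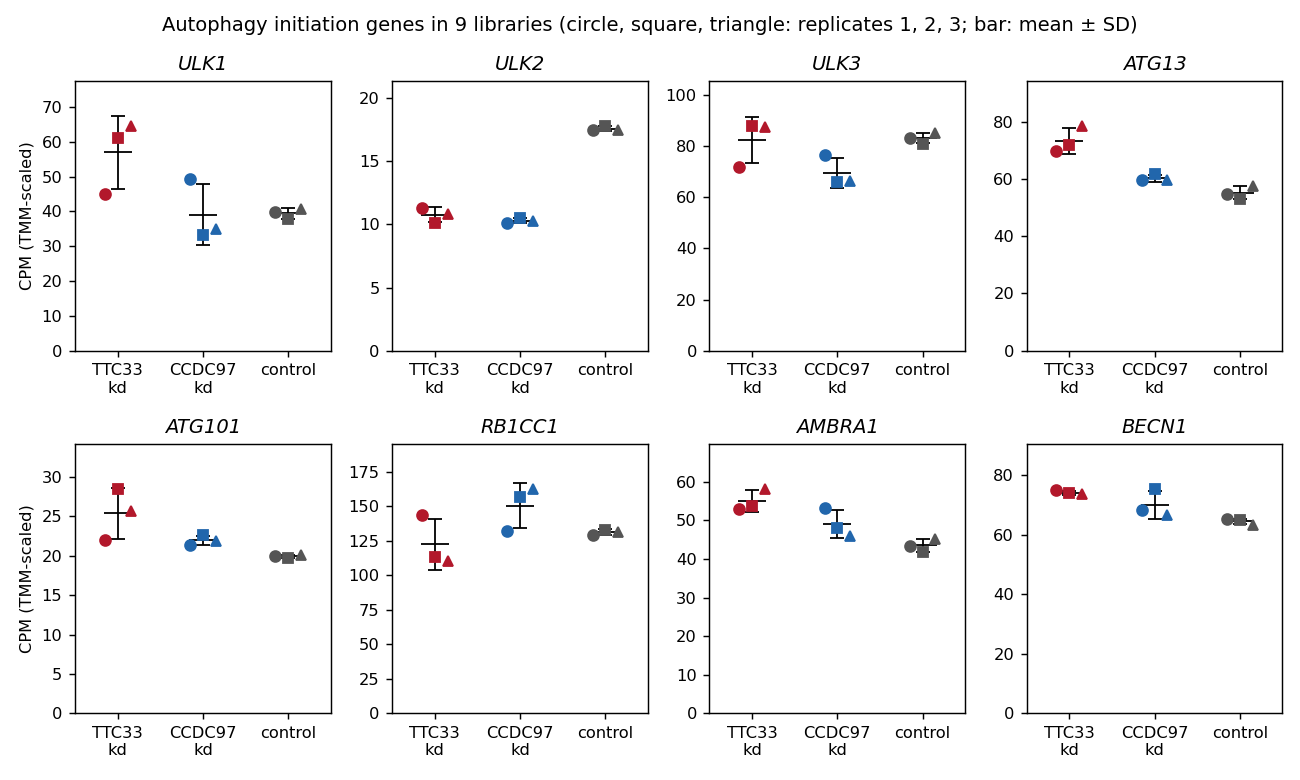
CPM of each of the 8 members in the 9 libraries (circle, square and triangle for replicates 1, 2 and 3) with the mean and SD of 3 libraries, for TTC33 knock-down, CCDC97 knock-down and control (kd, knock-down). Each panel has its own linear axis from 0. ULK2 sits between 10.1 and 11.3 CPM in the 6 knock-down libraries and between 17.5 and 17.8 CPM in the 3 control libraries.

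ULK2, one of the paired kinases of the complex (ENSG00000083290, chr17:19770829-19867936, minus strand), had 11.3, 10.1 and 10.9 CPM in TTC33 knock-down replicates 1, 2 and 3. It had 10.1, 10.5 and 10.3 CPM in CCDC97 knock-down and 17.5, 17.8 and 17.5 CPM in control. Every knock-down library was below every control library, and the 2 knock-downs overlapped each other. In RNA from bulk cells, a smaller share of expressing cells and less RNA per cell cannot be told apart. Its level was 61.3% of control in the TTC33 knock-down (log2 fold change -0.71 ± 0.08 SE, n = 3 against 3, edgeR adjusted p = 0.000505). Its level in the CCDC97 knock-down was 58.7% of control (-0.77 ± 0.08, edgeR adjusted p = 0.000561). By p-value it stood at place 106 of all genes in the TTC33 knock-down and at place 45 in the CCDC97 knock-down. The call held in each of 21 alternative fits per comparison, with log2 fold changes of -0.75 to -0.66 in the TTC33 knock-down and -0.80 to -0.75 in the CCDC97 knock-down. With the GC and length correction the values were -0.70 ± 0.07 (edgeR adjusted p = 4.47e-06) and -0.76 ± 0.07 (edgeR adjusted p = 3.62e-06). Each library also has a smaller table of counts, whose meaning is not stated. ULK2 had 11.5 to 12.7 counts-per-million of that table in TTC33 knock-down, 7.70 to 8.89 in CCDC97 knock-down and 15.3 to 21.0 in control, so the groups were again apart, at counts of 12 to 92 reads.

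ULK1, the kinase best known for starting autophagy (ENSG00000177169, chr12:131894651-131923167, plus strand), had 45.1, 61.2 and 64.5 CPM in TTC33 knock-down replicates 1, 2 and 3. It had 49.2, 33.2 and 34.9 CPM in CCDC97 knock-down and 39.8, 37.7 and 40.7 CPM in control. All TTC33 knock-down libraries were above all controls, while CCDC97 knock-down libraries lay on both sides, replicate 1 above and the other two below. The log2 fold change was 0.53 ± 0.16 SE in the TTC33 knock-down, which did not pass (edgeR adjusted p = 0.0523), and -0.01 ± 0.16 in the CCDC97 knock-down (edgeR adjusted p = 0.982). After the GC and length correction the TTC33 knock-down value was 0.29 ± 0.05 and passed (edgeR adjusted p = 0.000698), as did 27.4% of all genes. The corrected CCDC97 knock-down value was 0.14 ± 0.05 (edgeR adjusted p = 0.0665). Without replicate 1 of both knock-downs, a fit chosen after seeing the data, the values were 0.67 (edgeR adjusted p = 4.91e-09) and -0.21 (edgeR adjusted p = 0.00667), so the CCDC97 knock-down has a negative value there and a positive one after the correction.

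ULK3 (ENSG00000140474, chr15:74836116-74843346, minus strand) had 72, 87.9 and 87.4 CPM in TTC33 knock-down, 76.5, 66.0 and 66.3 CPM in CCDC97 knock-down, and 83.3, 81.0 and 85.2 CPM in control. TTC33 knock-down replicate 1 was below the controls and the other two above, and all CCDC97 knock-down libraries were below the controls. Neither fold change passed, at -0.01 ± 0.09 SE in the TTC33 knock-down (edgeR adjusted p = 0.94) and -0.26 ± 0.09 in the CCDC97 knock-down (edgeR adjusted p = 0.145). With the GC and length correction both passed, at -0.19 ± 0.05 (edgeR adjusted p = 0.00730) and -0.15 ± 0.05 (edgeR adjusted p = 0.0317).

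**Figure D2:**
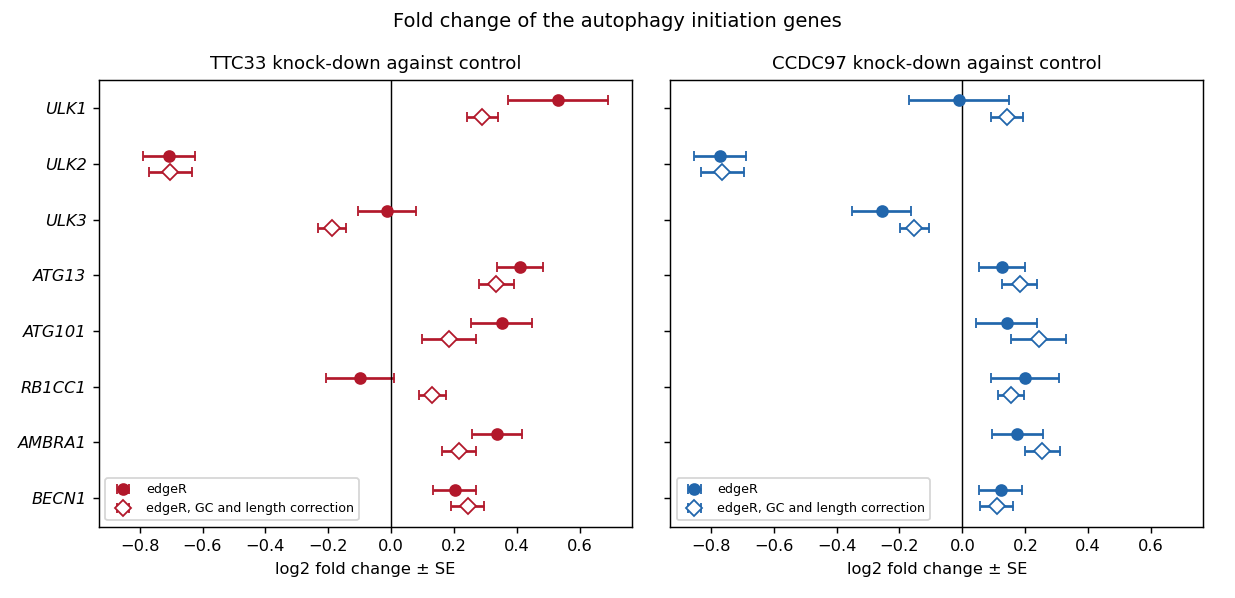
Log2 fold change of each member (point) with its standard error (line) in TTC33 knock-down and CCDC97 knock-down against control, from the fit as described (filled circles) and after the GC and length correction (open diamonds). ULK2 lies at -0.71 and -0.77, and at -0.70 and -0.76 after the correction, while RB1CC1 in the TTC33 knock-down lies on opposite sides of 0.

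The subunits that ULK1 and ULK2 share were higher in the TTC33 knock-down, apart from RB1CC1. ATG13, the adaptor that links the kinase to the scaffold (ENSG00000175224, chr11:46617527-46674818, plus strand), had 69.6, 71.9 and 78.5 CPM in TTC33 knock-down replicates 1, 2 and 3. It had 59.5, 61.6 and 59.6 CPM in CCDC97 knock-down and 54.8, 53.1 and 57.7 CPM in control. The 3 groups did not overlap, with TTC33 knock-down highest and control lowest. ATG13 rose in the TTC33 knock-down (log2 fold change 0.41 ± 0.07 SE; edgeR gave an adjusted p of 0.00620), and passed in 20 of 21 alternatives, the exception being the fit without control replicate 2 (edgeR adjusted p = 0.0508). The CCDC97 knock-down value was 0.13 ± 0.07 and did not pass (edgeR adjusted p = 0.358). With the GC and length correction both passed, at 0.33 ± 0.05 in the TTC33 knock-down (edgeR adjusted p = 0.000508) and 0.18 ± 0.06 in the CCDC97 knock-down (edgeR adjusted p = 0.0330). ATG13 shares 329 exon bases with HARBI1 on the opposite strand, where the reads of either gene cannot be assigned because the strand setting of the counting is not given in the sources used here.

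ATG101, which binds ATG13 and stabilises it (ENSG00000123395, chr12:52069246-52077494, plus strand), had 22, 28.5 and 25.7 CPM in TTC33 knock-down, 21.4, 22.6 and 21.9 CPM in CCDC97 knock-down, and 19.9, 19.7 and 20.1 CPM in control. Both knock-downs were above control in all libraries, by the smallest margin in TTC33 knock-down replicate 1 and CCDC97 knock-down replicate 1. The log2 fold change was 0.35 ± 0.10 SE in the TTC33 knock-down (edgeR adjusted p = 0.0396) and 0.14 ± 0.10 in the CCDC97 knock-down (edgeR adjusted p = 0.456). The TTC33 knock-down call ended in 7 of 9 fits that left out a library (largest edgeR adjusted p = 0.166) and after the GC and length correction (0.18 ± 0.09, edgeR adjusted p = 0.130). The corrected value in the CCDC97 knock-down was 0.24 ± 0.09 (edgeR adjusted p = 0.0645). ATG101 shares 614 exon bases with the antisense RNA AC025259.1.

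RB1CC1, the scaffold (ENSG00000023287, chr8:52622456-52745843, minus strand), had 144, 113 and 110.1 CPM in TTC33 knock-down, 132, 157 and 163 CPM in CCDC97 knock-down, and 129, 133 and 131 CPM in control. In each knock-down replicate 1 stood apart from the other two, which were below the controls in the TTC33 knock-down and above them in the CCDC97 knock-down. Neither fold change passed, at -0.10 ± 0.11 SE (edgeR adjusted p = 0.563) and 0.20 ± 0.11 (edgeR adjusted p = 0.334). The direction in the TTC33 knock-down turned with the GC and length correction, to 0.13 ± 0.04 (edgeR adjusted p = 0.0318), whereas without TTC33 knock-down replicate 1 it was -0.23 (edgeR adjusted p = 0.0462). No direction is therefore given for RB1CC1 in the TTC33 knock-down. The CCDC97 knock-down value passed with the correction, at 0.15 ± 0.04 (edgeR adjusted p = 0.0190).

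**Figure D3:**
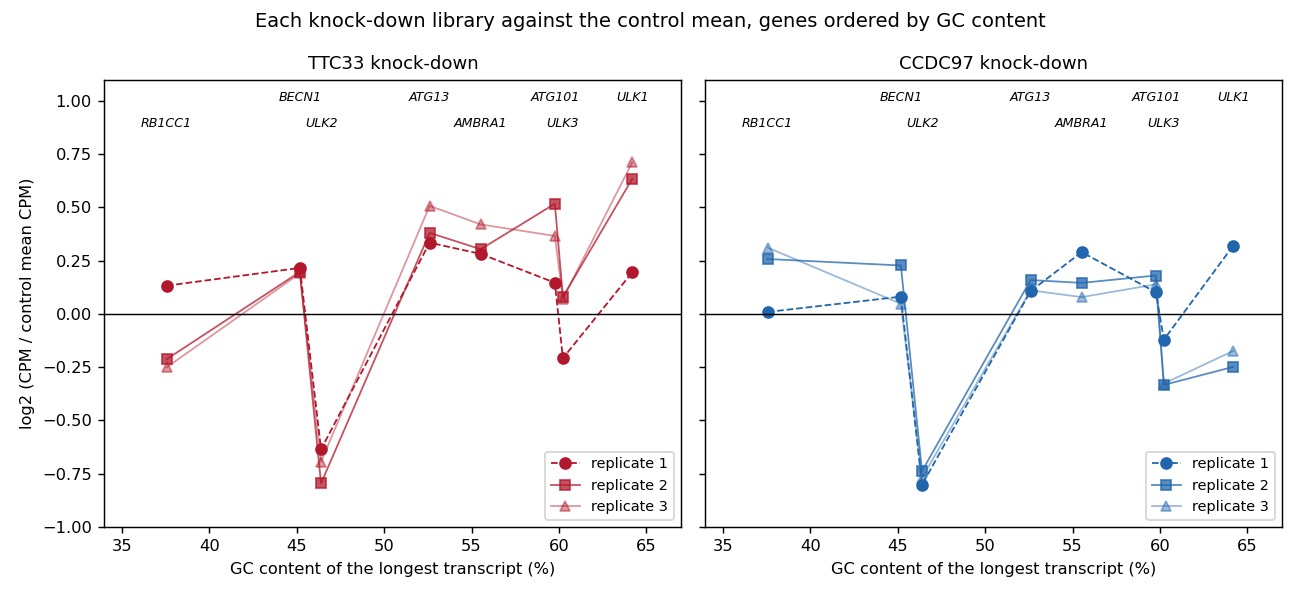
Log2 difference of each member from the control mean (vertical axis) against the GC content of its longest transcript in percent (horizontal axis), in TTC33 and CCDC97 knock-down libraries. Lines join the members of 1 library and are dashed for replicate 1. Replicates 2 and 3 lie below 0 for RB1CC1 and above 0 for ULK1 in the TTC33 knock-down, and the other way round in the CCDC97 knock-down, while ULK2 lies between -0.80 and -0.64 in all 6.

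AMBRA1 and BECN1, which act on the class III PI 3-kinase complex, were both highest in the TTC33 knock-down by mean. AMBRA1 (ENSG00000110497, chr11:46396414-46594125, minus strand) had 52.9, 53.7 and 58.2 CPM in TTC33 knock-down, 53.2, 48.1 and 45.9 CPM in CCDC97 knock-down, and 43.4, 41.8 and 45.3 CPM in control. Each knock-down library was above each control library, CCDC97 knock-down replicate 3 by the least. AMBRA1 rose in the TTC33 knock-down (log2 fold change 0.34 ± 0.08 SE, edgeR adjusted p = 0.0234), a call that ended in 5 of 9 fits without a library (largest edgeR adjusted p = 0.115) and held after the GC and length correction (0.22 ± 0.05, edgeR adjusted p = 0.00909). The CCDC97 knock-down had a value of 0.18 ± 0.08 (edgeR adjusted p = 0.246), and with the correction 0.25 ± 0.05 (edgeR adjusted p = 0.00536).

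BECN1, the core subunit of the complex (ENSG00000126581, chr17:42810134-42833350, minus strand), had 74.9, 73.9 and 73.6 CPM in TTC33 knock-down, 68.2, 75.5 and 66.6 CPM in CCDC97 knock-down, and 65.1, 64.9 and 63.4 CPM in control. All knock-down libraries were above the controls. The log2 fold change was 0.20 ± 0.07 SE in the TTC33 knock-down (edgeR adjusted p = 0.0792) and 0.12 ± 0.07 in the CCDC97 knock-down (edgeR adjusted p = 0.357), and neither passed. With the GC and length correction the TTC33 knock-down value was 0.24 ± 0.05 (edgeR adjusted p = 0.00353) and that of the CCDC97 knock-down 0.11 ± 0.05 (edgeR adjusted p = 0.167). BECN1 shares 795 exon bases with CNTD1 and 300 with PSME3, both on the other strand.

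With the replicate number as a block, 4.13% of all genes passed in the TTC33 knock-down. Of the members 2 passed: ULK2 (edgeR adjusted p = 0.00743) and ATG13 (edgeR adjusted p = 0.0308). AMBRA1 (edgeR adjusted p = 0.0770) and ATG101 (edgeR adjusted p = 0.0913) no longer passed, at log2 fold changes of 0.34 and 0.35. This block gives same-numbered libraries of all groups a shared term. Yet same-numbered libraries of the knock-downs correlated at -0.80, -0.28 and -0.36, and different-numbered ones at -0.61 to 0.74. Passing or failing with this block therefore does not settle which calls hold. With the block fitted on the 6 libraries of these groups alone, a fit chosen after seeing the data, 1891 of 17971 genes passed. Among the members ULK2, ATG13, AMBRA1 (edgeR adjusted p = 0.0429) and ULK1 (edgeR adjusted p = 0.0402) passed there. ATG101 did not (edgeR adjusted p = 0.0748).

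Set directly against each other, the knock-downs gave 2 calls among the 8 members, ULK1 and ATG13, both higher in the TTC33 knock-down. That is near the share of all genes that passed, 21.5%, with 11.3% higher and 10.2% lower. Neither gene passed with the 2 groups alone (1479 of 17616 genes did) or with the replicate block (1857 of 18299). Nor did either pass with the block on those groups (97 of 17616), a fit chosen after seeing the data. The log2 fold change of TTC33 over CCDC97 knock-down was 0.54 ± 0.16 SE for ULK1 (edgeR adjusted p = 0.0353) and 0.28 ± 0.07 for ATG13 (edgeR adjusted p = 0.0203). The ULK1 libraries of the knock-downs overlapped, since CCDC97 knock-down replicate 1, at 49.2 CPM, was above TTC33 knock-down replicate 1, at 45.1 CPM. ATG13 was the 1 member whose knock-down libraries did not overlap, as for 30.4% of all genes. Both calls depended on the libraries used: ULK1 no longer passed in 7 of 9 fits without a library and ATG13 in 4 of 9. With the GC and length correction the ULK1 value was 0.15 ± 0.05 (edgeR adjusted p = 0.0393) and the ATG13 value 0.15 ± 0.06 (edgeR adjusted p = 0.0534). ULK2 did not pass, at 0.06 ± 0.08 (edgeR adjusted p = 0.615). Without the correction ATG101 failed too, at 0.21 ± 0.10 (edgeR adjusted p = 0.137), as did AMBRA1, at 0.16 ± 0.08 (edgeR adjusted p = 0.162). Their corrected differences were below 0, at -0.06 for ATG101 (edgeR adjusted p = 0.651) and -0.04 for AMBRA1 (edgeR adjusted p = 0.645).

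The ratio of the paired kinases was above control in every knock-down library. Per kilobase of exon, the ratio of ULK1 to ULK2 was 5.16, 7.82 and 7.69 in TTC33 knock-down replicates 1, 2 and 3, with a mean of 6.89 ± 1.5 (SD, n = 3). It was 6.31, 4.07 and 4.39 in CCDC97 knock-down (4.92 ± 1.21) and 2.95, 2.74 and 3.01 in control (2.90 ± 0.14). All 6 knock-down ratios were above all 3 control ratios, and the knock-downs overlapped. In the CCDC97 knock-down the uncorrected ratio differed through ULK2, since ULK1 averaged 39.1 CPM there and 39.4 CPM in control. Scaled by the longest transcripts, the mean ratios were 6.03, 4.31 and 2.54 in TTC33 knock-down, CCDC97 knock-down and control. The ratios carry no GC and length correction, and ULK1 has 64.2% G and C against 46.4% for ULK2 over their longest transcripts. With the correction the log2 fold changes in the TTC33 knock-down were 0.29 for ULK1 and -0.70 for ULK2. In the CCDC97 knock-down they were 0.14 for ULK1 and -0.76 for ULK2. The part of the GC trend in the ratios was not tested. The ratio was built from values already seen and was not tested.

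**Figure D4:**
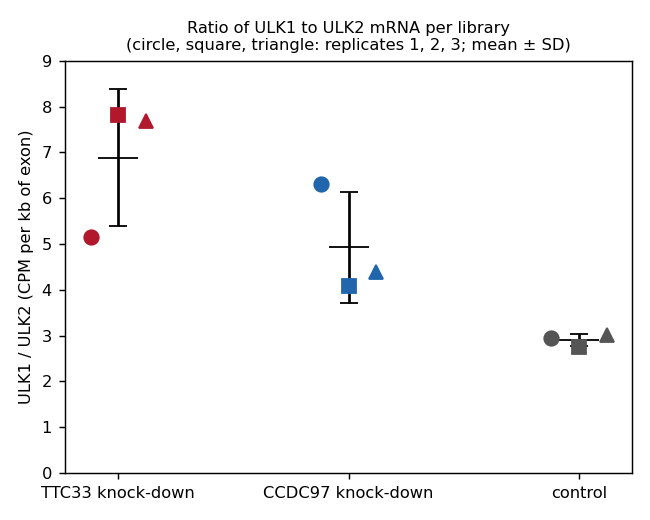
Ratio of ULK1 to ULK2 in CPM per kilobase of exon, in each library (points) with the mean and SD of 3 libraries per group, for TTC33 knock-down, CCDC97 knock-down and control cells. The knock-down ratios lie between 4.07 and 7.82, all above the control ratios of 2.74 to 3.01. No GC and length correction was applied to the ratios.

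Among themselves the members kept nearly the same order of level per kilobase of exon in each group. In control cells mean levels were 23.7 CPM per kilobase for ULK3, 17.2 for RB1CC1, 10.1 for BECN1, 7.89 for ATG13, 6.22 for ATG101, 5.67 for AMBRA1, 5.18 for ULK1 and 1.79 for ULK2, and no neighbours in this order overlapped. ULK2 was lowest in each group, at 1.09 CPM per kilobase in TTC33 knock-down and 1.05 in CCDC97 knock-down. In TTC33 knock-down ULK1, at 7.48 CPM per kilobase, stood above AMBRA1, at 7.16, and ATG101, ULK1 and AMBRA1 overlapped as neighbours. In CCDC97 knock-down ULK3, at 19.8 CPM per kilobase, overlapped RB1CC1, at 19.8, and AMBRA1 overlapped both ATG101 and ULK1. Scaled by the longest transcript in place of all exons, ATG101 moved to the third place in every group.

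Genes whose levels over the 9 libraries were most like a member's were sought among 11514 genes averaging 5 CPM or more, by the root mean square difference of centred log2 CPM. For ULK1 these were MINK1 (0.031), ZNF787 (0.039) and RFX1 (0.040), where the median gene differed by 0.35. MINK1, a kinase, had a log2 fold change of 0.52 in the TTC33 knock-down (edgeR adjusted p = 0.0478) and -0.04 in the CCDC97 knock-down (edgeR adjusted p = 0.928). For ULK2 they were VPS26C (0.083), ACADSB (0.091) and a gene with no symbol, ENSG00000288658 (0.093), against a median of 0.39. VPS26C, a subunit of an endosomal sorting complex, fell in both knock-downs, with log2 fold changes of -0.63 (edgeR adjusted p = 0.00172) and -0.64 (edgeR adjusted p = 0.00330). ATG13 was closest to TBC1D20 (0.041), BSDC1 (0.048) and WIPI2 (0.048), ATG101 to PTRHD1, AATF and DNAJC11, and AMBRA1 to PPME1, DCTN3 and SIK3. WIPI2, which binds PI3P and recruits the conjugation machinery to the growing membrane, is the 1 gene of these that also belongs to the pathway lists below. All these genes were picked for their levels in the same libraries, without the GC and length correction. Their fold changes and adjusted p-values therefore follow from that choice and carry no independent weight.

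Beyond the members, 143 genes of the pathway in 11 lists were counted, 137 of which were tested. In the TTC33 knock-down 22 were higher and 6 lower (20.4%), where 6.50% of all genes were higher and 5.44% lower, and their median log2 fold change was 0.09. With the replicate block 11 were higher and 1 lower, where 4.13% of all genes passed: RUBCN, WIPI2, ZFYVE1, GABARAPL1, SQSTM1, TOLLIP, NEU1, ATP6V0D1, LAMP1, PLEKHM1 and VPS18 higher and RTN3 lower. The other TTC33 knock-down calls named below did not pass with it. With the GC and length correction 38 were higher and 13 lower, where 27.4% did. In the CCDC97 knock-down ATG14, VMP1, NPRL2 and PRKAB1 were higher and MTOR and FNIP2 lower (4 and 2 of 137, or 4.38%), with a median of 0.05. Of all genes 2.07% were higher and 2.49% lower there. With the replicate block 0 were higher and 1 lower, MTOR, where 1.31% of all genes passed. With the correction 28 were higher and 10 lower, where 19.3% of all genes passed. Between the knock-downs 29 were higher and 13 lower in the TTC33 knock-down (30.7%), where 21.5% of all genes passed. With the correction 26 were higher and 22 lower, where 27.6% of all genes passed.

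Of 8 class III PI 3-kinase genes, 1 rose in the TTC33 knock-down: RUBCN, which restrains the complex at later steps, with 30.9, 35.2 and 33.1 CPM, against 23.4, 22.7 and 23.2 CPM in control (log2 fold change 0.52 ± 0.08 SE, edgeR adjusted p = 0.00396). The catalytic subunit PIK3C3, also named after its value was seen, had a log2 fold change of -0.03 in the TTC33 knock-down (edgeR adjusted p = 0.877). In the CCDC97 knock-down 1 of the 8 rose, ATG14, the subunit that directs the complex to autophagy (0.43 ± 0.10, edgeR adjusted p = 0.0430), and this call ended in 7 of 9 fits without a library. Of 10 ATG9, ATG2 and PI3P effector genes tested, 3 rose in the TTC33 knock-down. WIPI2 had 75.9, 80.0 and 80.8 CPM, against 54.6, 56.0 and 58.5 CPM in control (0.49 ± 0.07, edgeR adjusted p = 0.00138). ZFYVE1, which binds PI3P, was at 0.50 and WDR45, a relative of WIPI2, at 0.31. WDR45 shares 757 exon bases with PRAF2 and lost its call in 6 of 9 fits without a library. In the CCDC97 knock-down 1 of the 10 rose, VMP1, a lipid scramblase (0.33 ± 0.08, edgeR adjusted p = 0.0383), a call that ended in 7 of 9 such fits.

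Of 11 genes of ATG12 and ATG8 conjugation, 2 rose in the TTC33 knock-down, ATG16L1 (0.31) and ATG4A (0.37), and 1 fell, ATG10 (-0.44). Each of these 3 calls ended in 5 to 7 of 9 fits without a library. Of 5 tested ATG8 family genes, which encode the ubiquitin-like proteins bound to the vesicle membrane, 1 rose in the TTC33 knock-down: GABARAPL1, with 31.8, 32.9 and 30.6 CPM, against 24.2, 23.6 and 23.2 CPM in control (0.43 ± 0.07, edgeR adjusted p = 0.00544). Of 16 autophagy receptors, 2 rose and 2 fell in the TTC33 knock-down. SQSTM1 (p62), the receptor for ubiquitinated cargo, had 166, 205 and 196 CPM in TTC33 knock-down, against 124, 127 and 126 CPM in control (0.59 ± 0.09, edgeR adjusted p = 0.00221), and shares 1582 exon bases with MRNIP on the other strand. TOLLIP, which binds ubiquitin, rose by a log2 fold change of 0.63. RETREG1, a receptor for endoplasmic reticulum sheets, was the other receptor that fell, at -0.54 (edgeR adjusted p = 0.0274), and was named after its value was seen. RTN3, a receptor for endoplasmic reticulum tubules, had 122, 106 and 102 CPM in TTC33 knock-down, against 179.6, 187 and 183 CPM in control (-0.74 ± 0.08, edgeR adjusted p = 0.000335).

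Of 24 genes of mTORC1 and its lysosomal regulators, MTOR moved most in the CCDC97 knock-down. MTOR, the kinase that restrains the ULK complex, had 155, 146 and 152 CPM in CCDC97 knock-down and 260.2, 268 and 271 CPM in TTC33 knock-down, against 253, 248 and 256 CPM in control. The CCDC97 knock-down libraries were below all 6 others. The log2 fold change was -0.74 ± 0.06 SE in the CCDC97 knock-down (edgeR adjusted p = 4.66e-05) and 0.08 ± 0.06 in the TTC33 knock-down (edgeR adjusted p = 0.367), and the knock-downs differed by 0.82 ± 0.06. The call stood whichever of the 9 libraries was left out, and MTOR shares 220 of its exon bases with MTOR-AS1. FNIP2, a partner of folliculin, fell in the CCDC97 knock-down (-0.48) and NPRL2, a subunit of the GATOR1 complex that inhibits mTORC1, rose (0.40), with calls that ended in 4 and 8 of 9 such fits. In the TTC33 knock-down 1 of the 24 rose, TSC1 (0.23), and 1 fell, the mTOR inhibitor DEPTOR (-0.46), with calls that ended in 7 and 5 of 9 such fits.

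Of 10 tested AMPK genes, the regulatory subunit gene PRKAB1 rose in both knock-downs, by log2 fold changes of 0.37 (edgeR adjusted p = 0.0117) in TTC33 knock-down and 0.36 (edgeR adjusted p = 0.0218) in CCDC97 knock-down. It had 37.4, 39.1 and 42.1 CPM in TTC33 knock-down and 38.7, 40.2 and 39.2 CPM in CCDC97 knock-down, against 31.4, 30.4 and 30.2 CPM in control, and the calls ended in 4 and 5 of 9 fits without a library. Neither PRKAB1 call passed with the replicate block over all 9 libraries (edgeR adjusted p = 0.0526 and 0.0881). Of 13 tested regulators that bind BECN1 or ULK1, 1 rose in the TTC33 knock-down, DAPK1, a kinase of BECN1 (0.25), with a call that ended in 6 of 9 such fits. Of 21 tested MiT/TFE factors and lysosomal targets, 8 rose and 1 fell in the TTC33 knock-down, with a median log2 fold change of 0.13. NEU1, a lysosomal sialidase, had 63.2, 74.1 and 76.8 CPM in TTC33 knock-down, against 43.7, 43.8 and 46.0 CPM in control (0.68 ± 0.08, edgeR adjusted p = 0.000753). LAMP1, a protein of the lysosomal membrane, had 132, 140.3 and 153 CPM in TTC33 knock-down, against 100.4, 99.2 and 100.3 CPM in control (0.50 ± 0.08, edgeR adjusted p = 0.00428). ATP6V0D1, a subunit of the lysosomal proton pump, was at 0.59, and GLA, a lysosomal galactosidase, was the gene that fell (-0.37, edgeR adjusted p = 0.0123), also named after its value was seen. With the replicate block 3 of the 21 rose, where 4.13% of all genes passed, and with the GC and length correction 8 rose and 1 fell, where 27.4% passed in place of 11.9%. The factor genes themselves, named after their values were seen, were at -0.07 for TFEB (edgeR adjusted p = 0.807), 0.37 for TFE3 (edgeR adjusted p = 0.0391) and 0.06 for MITF (edgeR adjusted p = 0.738). Of 13 genes of autophagosome and lysosome fusion, PLEKHM1 (0.63) and the tethering subunit VPS18 (0.52) rose in the TTC33 knock-down and the SNARE STX17 (-0.30) fell, the last call ending in 7 of 9 fits without a library. In the list of 6 other ULK family and Hedgehog genes the median log2 fold change was 0.13 in TTC33 knock-down and 0.01 in CCDC97 knock-down. For ULK4, likewise named after its values were seen, it was -0.04 (edgeR adjusted p = 0.821) and 0.19 (edgeR adjusted p = 0.340).

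**Figure D5:**
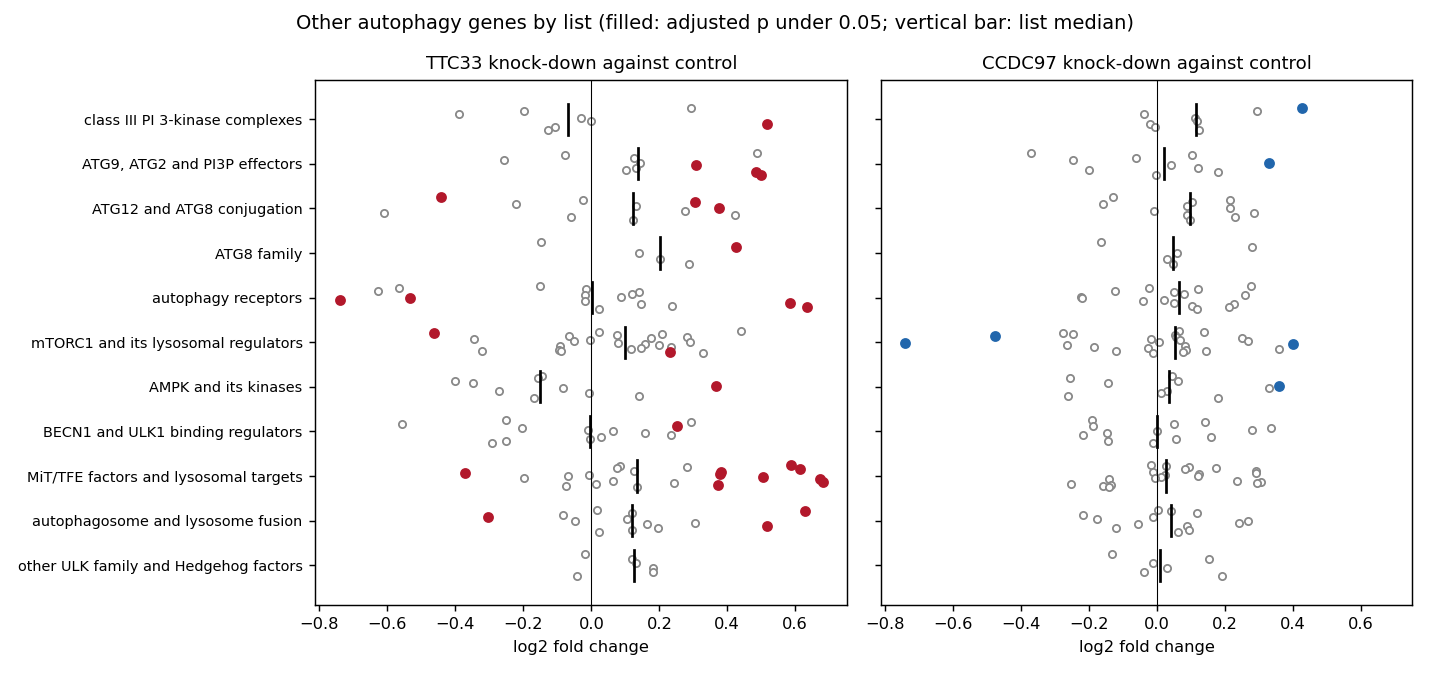
Log2 fold change of each gene of 11 pathway lists (points) in TTC33 knock-down and CCDC97 knock-down against control, filled where the edgeR adjusted p was under 0.05, with the list median as a vertical bar. The list of MiT/TFE factors and lysosomal targets has 8 filled points above 0 and 1 below in the TTC33 knock-down.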

How the data were processed

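Total RNA, taken up with hot acid phenol, was sequenced from 9 libraries, 3 in each of 3 groups, per the labels' protocols. Groups and replicate numbers came from the labels, which name no batch. The authors deposited raw read counts for each gene, as whole numbers with no normalization. Per the submitters' processing notes, Trimmomatic 0.39, HISAT2 and HTSeq 2.0.1 were used with GRCh38. The sources used here give no library kit, strandedness, annotation release or microRNA sequence. Each library has a table marked R12, used throughout, and a smaller table marked U that held 6.55% to 11.9% of the sum (what the marks mean is not stated). Rows that name no gene held 33.4% to 57.9% of the R12 counts and were left out.

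Members and pathway lists were chosen with earlier results of these data known. Counts of 18299 genes kept by filterByExpr were tested with edgeR 4.0.16 (R 4.3.3, quasi-likelihood F test, 2-sided, TMM factors, all 9 libraries, a term per group, 6 residual degrees of freedom), with Benjamini-Hochberg adjustment over all genes and a threshold of 0.05. The common coefficient of biological variation was 0.109. The standard error is the log2 fold change divided by the square root of F. Levels are counts-per-million (CPM) on TMM-scaled library sizes, and per kilobase of merged exons (GENCODE v29) between genes. Positions are from the same annotation. The GC and length correction used offsets from per-library smooth trends (mgcv 1.9.3), and 98.6% of the genes tested had both values. The offsets were taken as known, so standard errors and p-values after the correction leave out the uncertainty of the trends. Other alternatives were DESeq2 1.42.0, other factors and filters, the 2 groups alone, the sum of both tables, a replicate block and leaving out each library. Promoter sequences came from RefSeq (GRCh38.p14), where 7 of the 8 members had an entry. The main fit alone was run on simulated counts, with the common variation for every gene and no GC trend. In TTC33 knock-down against control it called 94% of 100 genes simulated to change by 0.7 on the log2 scale. For a change of 1 it called 100% of 100 genes. The replicate block and the GC and length correction were not simulated.

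Genes were named by rule: the 8 members, up to 3 genes per pathway list with the smallest adjusted p among those past the threshold against control, the targeted genes, and the 3 genes most like ULK1 and each called member. Genes outside the rule are marked in the text as named after their values were seen. Deviations from the group mean of same-numbered TTC33 knock-down and control libraries correlated at 0.17, 0.12 and 0.20, and different-numbered ones at -0.22 to 0.05. The numbers were taken to pair them on this hint from the data, which does not establish pairing. Control replicate 1 and CCDC97 knock-down replicate 3, of different numbers, correlated at 0.19. The CCDC97 knock-down and control libraries (-0.10, 0.33 and 0.07) and the knock-downs with each other (-0.80, -0.28 and -0.36) did not pair. The replicate block in the fit of all 9 libraries covered these libraries too. In pairs of libraries of 1 group the chi-square per degree of freedom over genes was 3.31 to 34.6, so libraries differed by more than sampling noise in every pair.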

Additional observations from a re-analysis of the deposited data

Results flagged for a closer look

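Between the knock-downs 2 of 8 members passed in the fit of all 9 libraries, near the 21.5% of all genes that did. These were ULK1 and ATG13, whose effect differed in a test of the difference itself. Neither passed with the replicate block, with the 2 groups alone or with the block on those groups, and of the 9 fits that each lacked 1 library, ULK1 did not pass in 7 and ATG13 in 4. ULK1 had 45.1, 61.2 and 64.5 CPM in TTC33 knock-down, against 49.2, 33.2 and 34.9 CPM in CCDC97 knock-down, which is 0.54 ± 0.16 SE on the log2 scale (edgeR adjusted p = 0.0353). Leaving out replicate 1 of each knock-down gave 0.89 (edgeR adjusted p = 4.95e-10), and the GC and length correction gave 0.15 (edgeR adjusted p = 0.0393). ATG13 had 69.6, 71.9 and 78.5 CPM in TTC33 knock-down, against 59.5, 61.6 and 59.6 CPM in CCDC97 knock-down, which is 0.28 ± 0.07 SE on the log2 scale (edgeR adjusted p = 0.0203), and 0.31 without replicate 1 of each (edgeR adjusted p = 0.000177). The GC and length correction ended its call, at 0.15 (edgeR adjusted p = 0.0534). The part of the GC trend in either difference, beyond these values, was not tested. Groups of 3 libraries are too small to single out 1 library within a group by a test.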

How the results depend on the processing

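ULK2 was lower in both knock-downs in all 21 alternatives. Among the other results that changed, RB1CC1 in the TTC33 knock-down reversed to a log2 fold change of 0.13 with the GC and length correction, with or without the replicate block. The number of genes called in the TTC33 knock-down was 2186, and 3821 with no filter, 756 with the replicate block, 5020 with the GC and length correction (2087 of the 2186 among them) and 4567 with both. In the CCDC97 knock-down it was 835, and 1369 with no filter, 1471 with DESeq2, 1339 with the 2 groups alone, 240 with the replicate block, 1382 with the block on those groups alone (chosen after seeing the data), 3535 with the correction and 3149 with block and correction. There the split was 379 higher and 456 lower, and 2018 and 1517 with the correction. Between the knock-downs it was 3943, and 1479 with the 2 groups alone, 1857 with the replicate block and 97 with the block on those groups.

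Members called in the TTC33 knock-down were 4, where 11.9% of all genes were called. They were 2 with the replicate block (4.13% of all genes), 7 with the correction (27.4%) and 7 with block and correction (4567 of 18299 genes). In the CCDC97 knock-down they were 1 (4.56%), 5 with the correction (19.3%) and 4 with block and correction (3149 of 18299 genes). Between the knock-downs they were 2 (21.5%) and 1 with the correction (27.6%). There they were 0 with the 2 groups alone, with the replicate block (10.1%), with block and correction, and with the block on those groups. Leaving out a library gave 552 to 6512 genes and 1 to 6 members in the TTC33 knock-down, 203 to 1981 genes and 1 to 2 members in the CCDC97 knock-down, and 1528 to 7767 genes and 0 to 5 members between the knock-downs. The highest counts came without TTC33 knock-down replicate 1. Leaving out replicate 1 of both knock-downs, chosen after seeing the data, gave 9129, 6675 and 10362 of 18764 genes and 7, 5 and 6 members in these comparisons. The causes of these shifts were not tested. For CCDC97 knock-down and control, and for the knock-downs with each other, libraries share only a number, and the block changed the calls of ULK1 (edgeR adjusted p = 0.0904) and ATG13 (edgeR adjusted p = 0.0578) between the knock-downs. At 3 libraries a group, changes such as those of BECN1 (0.20 on the log2 scale) were near the limit of what passed. The levels of the members with the fewest counts, ULK2 and ATG101, are limited by counting error too.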

Other observations

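In the smaller deposited table, whose meaning is not stated and whose counts were tested only as part of the sum of both tables, ATG13 had 56.4 to 80.8 counts-per-million of that table in TTC33 knock-down, 48.2 to 55.3 in CCDC97 knock-down and 38.0 to 45.1 in control, and the 3 groups did not overlap. ULK1 had 33.8 to 53.3 in TTC33 knock-down, 21.9 to 32.6 in CCDC97 knock-down and 27.1 to 29.5 in control, with CCDC97 knock-down overlapping control. BECN1 had 75 to 80.9 in TTC33 knock-down, 61.8 to 76.7 in CCDC97 knock-down and 66.3 to 74.6 in control. These counts belong to the same libraries and are not further replicates.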
